A study of Arabidopsis thaliana with 24 samples.

Results

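Total RNA from Arabidopsis thaliana seedlings kept at 17°C or at 27°C was compared at time 0, shortly after dawn and before any base analog was added. The comparison takes all arrays that the sample labels give as total RNA at time 0, which are 6 of the 24 arrays of the series, 3 from 17°C and 3 from 27°C. Seedlings of the wild-type ecotype Columbia germinated for 3 days at 22°C and then spent 7 days at 1 of the 2 temperatures, in cycles of 12 hours of white light and 12 hours of dark. They were 10 days old by the labels, and both groups had floated on liquid MS medium for 12 hours when they were frozen. The other 18 arrays hold RNA collected at the end of labeling, after 2 hours at 17°C or 1 hour at 27°C with 4-thiouracil (4SU), either as total RNA or split into labeled and unlabeled fractions. The purpose of the time 0 arrays in the study was to give the transcript level from which decay and synthesis were followed, and they also show which transcripts differ after growth at temperatures 10°C apart.

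Plants register temperature within the ambient range, without heat or cold stress. Warmth promotes elongation of stems and petioles through the transcription factor PIF4 and auxin, and it speeds development, while cool growth favors transcripts of cold acclimation. Heat shock proteins are chaperones that keep proteins folded and are made under heat shock factors. The circadian clock is a loop of morning and evening transcription factors whose levels change fast around dawn. Because whole seedlings were used, a change in the share of a cell type or in developmental stage cannot be told apart from a change of transcript level per cell, and seedlings of equal age at 17°C and 27°C can be at different stages.

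The values are MAS5 signals of ATH1 probe sets, which are intensities on a linear scale with no absolute unit. Of 22746 probe sets, 57.1% were kept, those with the highest minimum over the 12 total RNA arrays, and none of these was below 48.2 on any array. A probe set was called when limma gave a Benjamini-Hochberg adjusted p under 0.01 and a fold above 1.5 between temperatures. Each array had the same trimmed mean of 500, so a change in total mRNA per seedling would not be seen. Log2 signals of replicates correlated across kept probe sets with r from 0.974 to 0.987 at 17°C and from 0.971 to 0.982 at 27°C, against 0.901 to 0.924 between temperatures. Ratios of 3′ to 5′ control probe sets, a sign of RNA length, were 0.75 to 0.98 at 17°C and 0.96 to 1.30 at 27°C for GAPDH, 7.49 to 12.9 and 9.67 to 18.3 for actin, and 1.98 to 2.78 and 1.98 to 2.17 for ubiquitin. Their part in the results was not tested.

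At 27°C 1393 of the kept probe sets were higher (10.7%) and 1568 were lower (12.1%). The remaining probe sets were not called, and the median log2 difference over all kept probe sets was 0.00. Most differences were small: 71.3% of probe sets lay within 1.5-fold, and the median fold was 1.89 among those higher and 1.92 among those lower. Beyond 2-fold lay 578 higher and 672 lower probe sets, and beyond 4-fold 78 and 47. The 3 arrays of one temperature lay apart from those of the other for 1390 of the probe sets called higher and 1566 of those called lower, where over all kept probe sets 25% were separated upward and 25.8% downward. A single gene could be named for 806 of the higher and 870 of the lower probe sets. Counts from gene lists below are to be set beside the 10.7% and 12.1%. Lists put together after values were seen do not measure how often such genes differ.

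**Figure D1:**
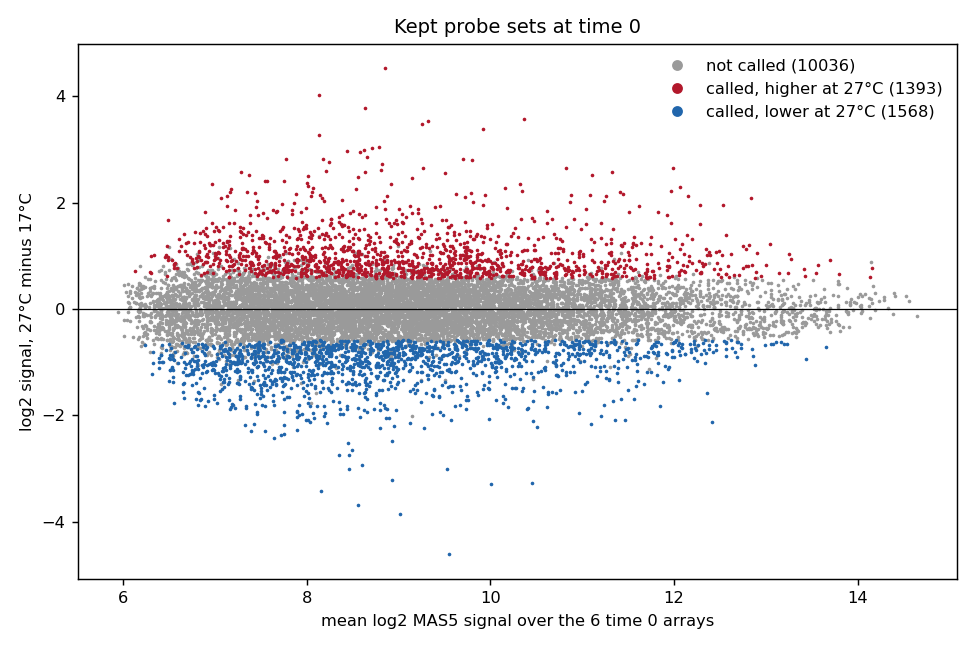
Difference in log2 MAS5 signal between 27°C and 17°C at time 0 (vertical axis) against the mean log2 signal over the 6 arrays (horizontal axis), with 1 point per kept probe set; red points are the 1393 called higher and blue points the 1568 called lower at 27°C. Called probe sets occur over the whole range of signal, in both directions.

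Among kept genes with a symbol that tells a role, the largest rise was that of CYP71B26, a cytochrome P450. Its signals were 120.2, 106 and 102 in the cool and 725, 722 and 879 in the warm seedlings. All 3 arrays at 27°C exceeded the highest at 17°C, and the log2 difference was 2.82 ± 0.14 (SE; adjusted p = 2.4e-08). BCB, a blue copper binding protein of the cell surface, was measured at 1572, 1796 and 1515 at 17°C and at 9784, 9341 and 11739 at 27°C. The groups did not overlap, and BCB rose by 2.66 ± 0.18 (adjusted p = 2.8e-07). Of the 12 largest rises the other 10 belong to loci that carry no role in the tables used here. They lay between 2.65 for AT1G72060 and 3.57 for AT2G43620 on the log2 scale, and AT1G07440, at 156 to 237 in the cool and 1986 to 2328 in the warm seedlings, had the smallest adjusted p among these 10 (3.1e-08).

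The largest fall among kept genes was that of AT5G48490, another locus with no role on file. It went from 3828, 3635 and 3651 to 111, 195 and 158, which is a log2 difference of -4.62 ± 0.20 (adjusted p = 1.2e-08). AGP4, an arabinogalactan protein of the cell wall, had signals of 3494, 2476 and 3923 at 17°C and 318, 578 and 192 at 27°C. The highest warm array was well under the lowest cool one, although the warm arrays differed among themselves by more than 2-fold, and AGP4 fell by 3.30 (SE 0.31, adjusted p = 4.1e-06). PAP29, a purple acid phosphatase, which releases phosphate from organic compounds, went from 1041, 872 and 1117 to 129.8, 190.1 and 77.1 and fell by 3.02 (SE 0.26, adjusted p = 2.2e-06). The other 9 of the 12 largest falls have no role on file and ranged from -3.69 for AT5G01870 to -2.24 for AT2G16005.

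**Figure D2:**
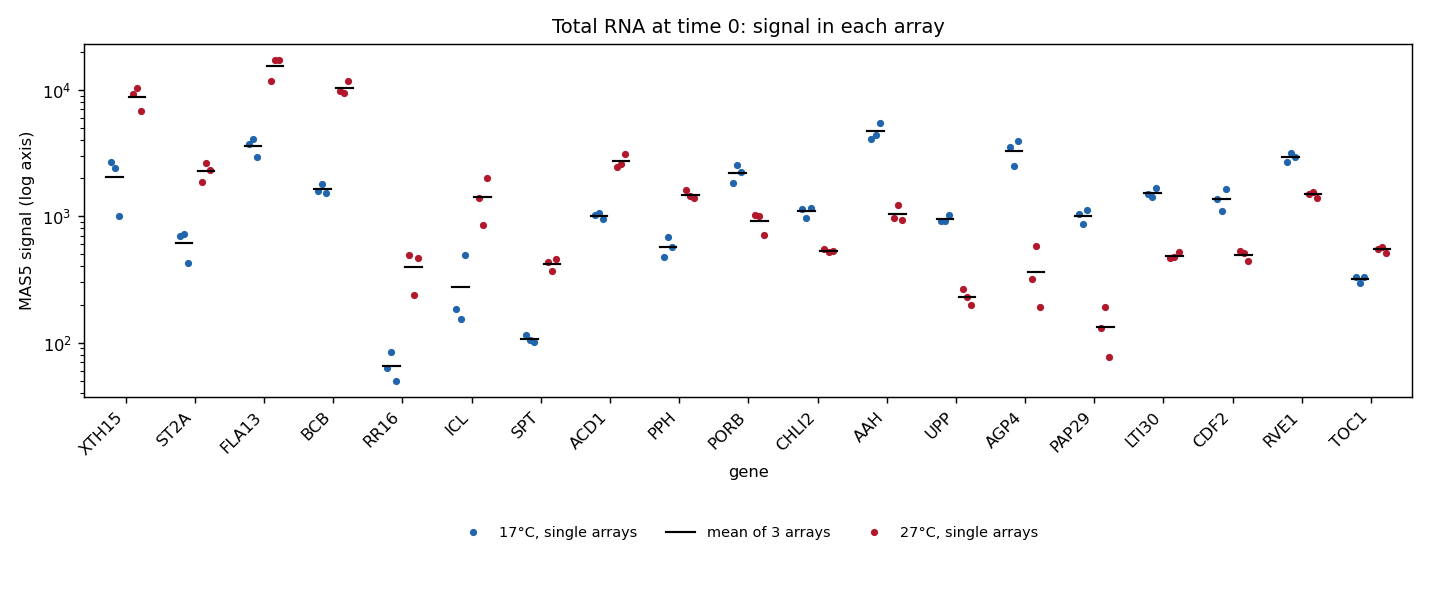
MAS5 signal (log axis) of 19 genes named in the text in each of the 3 arrays per temperature at time 0, blue for 17°C and red for 27°C, with the mean of 3 arrays as a black line. For every gene shown the arrays of one temperature lie apart from those of the other; CYP71B26 and the loci without a role are not shown.

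Few genes of elongation growth could be read. The list for the PIF4 pathway has 22 loci, of which 3 were named. The 2 that were kept rose, and EXPA8, too dim at 27°C to be kept, was called lower (its values follow with the other dim genes). EXPA8 was in the dim set only through its mean at 17°C, so it gives no direction for the list. XTH15, which cuts and rejoins xyloglucan chains in the wall, was at 2661, 2425 and 996 at 17°C and at 9335, 10334 and 6816 at 27°C. The third cool replicate was the lowest, and the groups stayed apart (log2 difference 2.23 ± 0.29, adjusted p = 5.6e-05). ST2A, a sulfotransferase that acts on hydroxylated jasmonates, rose by 1.91 ± 0.23 (adjusted p = 3.1e-05), from a mean of 613 ± 161 (SD, n = 3) to 2272 ± 396. These 3 members are too few to describe the pathway, and PIF4 and its auxin targets were mostly not among the named probe sets.

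Other wall genes, chosen after their values were seen, moved both ways. FLA13, a fasciclin-like arabinogalactan protein, had 3752, 4092 and 2964 in the cool and 11822, 17072 and 17181 in the warm seedlings (log2 difference 2.08 ± 0.17, adjusted p = 1.7e-06). COBL2, of the COBRA family of wall proteins, rose by 2.35 (adjusted p = 3.2e-08), the expansin-like EXLA1 by 1.60 (adjusted p = 0.00021) and EXO, a brassinosteroid-responsive gene of cell expansion, by 1.40 (adjusted p = 0.00023). Of 6 kept alpha-expansins, proteins that loosen walls, none rose and 2 were called lower. EXPA4 fell by 1.01 (adjusted p = 0.0031), a call lost without 17°C replicate 2 or 27°C replicate 2 (adjusted p up to 0.0169), and EXPA20 differed by -0.79, a call lost without any 1 of the 6 arrays (adjusted p 0.0128 to 0.0315). Of 5 kept XTH genes XTH15 alone was called, and the other 4 lay between 0.02 and 0.75. PGIP1, which inhibits polygalacturonases that attack pectin, fell by 1.87 (adjusted p = 2.1e-05).

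Hormone genes gave few calls. For brassinosteroid and gibberellin synthesis 2 of 18 listed loci were named and kept: CPD, a cytochrome P450 of brassinosteroid synthesis, went from 6320.2, 6147 and 5461 to 9898, 9577 and 9506 and rose by 0.70 ± 0.12 (adjusted p = 0.00046), while ROT3 differed by 0.19 (adjusted p = 0.53). The warm arrays of CPD lay close together and all above the cool ones. All 5 kept genes of early auxin response were below 0, with a median of -0.37. DFL1, which joins auxin to amino acids, was the 1 called (-0.81, adjusted p = 0.0045), and this call held in 2 of the 6 fits without 1 array (27°C replicate 1 or 2 left out; log2 -0.97 to -0.55 over the 6). Of 3 further kept genes found by the words of their description, SAUR36, of the family of small auxin-up RNAs, was called higher, at 599, 534 and 537 against 1249, 1376 and 1381 (1.26 ± 0.22, adjusted p = 0.00053). Its call held without any 1 array, and the median of these 3 was 0.15. Of 3 kept cytokinin response regulators 2 rose, both of type A, which damp the signal. RR16, also ARR16, had a mean of 65.8 ± 17.2 (SD, n = 3) in the cool and signals of 496, 239.6 and 464 in the warm seedlings (2.57 ± 0.24, adjusted p = 4.0e-06). ARR6 rose by 1.24 (adjusted p = 0.00022). Both were chosen after their values were seen, as were the bHLH factors SPT and HEC1, known as partners in carpel development: SPT rose from 115, 105 and 102 to 431, 369 and 461 (1.97 ± 0.22, adjusted p = 1.5e-05), and HEC1 rose by 2.04 (adjusted p = 2.6e-05).

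Clock genes differed in opposite directions. Of 29 listed loci 8 were named and kept. Of these 1 was higher, 2 were lower and 5 were not called, with a median of -0.03. That is 12.5% higher and 25.0% lower, beside 10.7% and 12.1% over all kept probe sets. CDF2, a DOF factor that represses flowering genes in the morning, had signals of 1356, 1091 and 1632 at 17°C and 534, 509 and 442 at 27°C and fell by 1.44 (SE 0.21, adjusted p = 0.00013). RVE1, a MYB-like factor that links the clock to auxin, went from 2666, 3156 and 2919 to 1503, 1559 and 1396 and fell by 0.97 (SE 0.19, adjusted p = 0.0013). Both pairs of groups were far apart relative to their replicates. The evening gene TOC1 was the 1 called higher, with 329.8, 298 and 332 against 553, 574 and 509 (0.77 ± 0.16, adjusted p = 0.0022). That call rested on 17°C replicate 2, since without it the difference was 0.72 and the adjusted p 0.0101. RVE2, a close relative of RVE1, lay at -0.63 (adjusted p = 0.033), and ZTL, CDF1, TCP11 and AT5G52660 lay between -0.09 and 0.29.

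GIGANTEA (GI), which acts in the clock and in flowering by day length, was too dim at 17°C to pass the filter. Such probe sets, under the filter but with a mean of at least 100 in 1 group, numbered 750, and 70 of them were called higher (9.33%) and 120 lower (16%). They were selected for being bright in 1 group, so these shares say nothing about how often dim genes differ. GI was measured at 2.37, 5.73 and 1.74 in the cool seedlings and at 143, 157 and 192 in the warm ones. The groups lie far apart (adjusted p = 5.4e-05), but a MAS5 signal of a few units has no reliable size. With each array below the lowest signal kept, 48.2, set to that signal, GI was at least 3.38-fold higher at 27°C. Bounds for other dim genes are given in the same way, from geometric means of 3 arrays. With only the 6 time 0 arrays in the fit, which then has fewer arrays to estimate the spread, GI had an adjusted p of 0.0111.

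Some heat shock genes were higher at 27°C, most of them among the dim probe sets. Of 59 listed loci 9 were kept, with 2 higher (22.2%, beside 10.7% over all kept probe sets), none lower and a median of 0.36. Genes found by the words of their description gave no such shift: of 18 kept 3 were higher and 1 lower, with a median of -0.01. HSA32, which prolongs acquired thermotolerance, went from 188, 134 and 122 to 486, 457 and 289 (1.46 ± 0.22, adjusted p = 0.0002). AT3G09440, on the same list, was at 740.4, 821 and 632 against 1937, 2071 and 2266 (1.52 ± 0.15, adjusted p = 7.4e-06). For both, each warm array was above each cool one. The heat shock factors HSF1 and HSF3 differed by -0.01 and -0.08 (adjusted p = 0.95 and 0.78), and HSFB2A by 0.24 (adjusted p = 0.29). AT-HSFA5, of the same family of factors and found by its description, was the 1 called lower, at 282, 275 and 302 against 143, 132 and 159.9 (-0.98, adjusted p = 0.00043).

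A further 6 genes of the list were dim at 17°C, and 5 of them were called higher. A gene dim at 17°C enters this set only through a mean of at least 100 at 27°C. The count of 5 therefore gives no direction for the list as a whole. Hop3, a co-chaperone that joins HSP70 and HSP90, was measured at 29.2, 55.1 and 27.3 in the cool and at 430.5, 263 and 355 in the warm seedlings, at least 6.80-fold higher (adjusted p = 0.00039). AT5G51440 was at least 3.45-fold higher (adjusted p = 0.0015), AT2G20560 at least 4.36-fold (adjusted p = 0.0025) and AT5G48570, also ROF2, an FKBP-type protein of the heat response, at least 3.57-fold (adjusted p = 0.0024). AT5G37670 had the smallest difference of the 5, at 60.9 ± 13.9 against 194 ± 29.0 (SD, n = 3; adjusted p = 0.0054). The calls of Hop3 and AT5G51440 held without any 1 array. That of AT2G20560 was lost without 27°C replicate 1 or 3 (adjusted p up to 0.0122), that of AT5G48570 without 17°C replicate 2 or 3 or 27°C replicate 3 (adjusted p up to 0.0111) and that of AT5G37670 without any 1 of the 6 (adjusted p 0.0146 to 0.0232). None of the 5 was called with the 6 time 0 arrays alone (adjusted p 0.0146 to 0.0328).

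Among 6 kept genes of chaperones and the unfolded protein response of the endoplasmic reticulum, BZIP17 rose and ATERDJ3B was called higher. These 2 are 33.3%, beside 10.7% higher over all kept probe sets. BZIP17, a membrane-bound transcription factor of that response, went from 267, 294 and 278 to 387, 635 and 494 (0.83 ± 0.16, adjusted p = 0.0012). ATERDJ3B, a co-chaperone, differed by 0.72 (adjusted p = 0.0051), but was called in just 1 of the 6 fits without 1 array, the one without 27°C replicate 2. BZIP28 and BZIP60, the other factors of the response, lay at 0.13 and 0.10.

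Of 6 kept cold response genes 1 was called lower and none higher. That is 16.7% lower, near the 12.1% over all kept probe sets. LTI30, a dehydrin that protects cells from freezing, was the 1 called of 6 kept genes, with 1485, 1431 and 1658 at 17°C and 465, 475 and 523 at 27°C. It fell by 1.64 (SE 0.15, adjusted p = 3.5e-06), with replicates close together in each group. COR47, another dehydrin, differed by 0.11 (adjusted p = 0.55), and the median of the 6 was 0.00. Among the dim members COR15A and COR15B, which protect chloroplast membranes, were both called lower. COR15B was at 145, 154 and 237 in the cool and 51.1, 51.0 and 45.2 in the warm seedlings, at least 3.48-fold lower (adjusted p = 0.0009), and COR15A was at least 3.76-fold lower (adjusted p = 0.0019). Neither was called with the 6 time 0 arrays alone (adjusted p = 0.0174 for COR15B and 0.0295 for COR15A). Both were in the dim set only through their means at 17°C, so they give no direction for the list. The flowering gene FCA, an RNA-binding protein of the autonomous pathway, was the 1 of 3 kept flowering genes to rise, from 205, 181 and 189 to 332, 391 and 368 (0.92 ± 0.14, adjusted p = 0.00016).

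**Figure D3:**
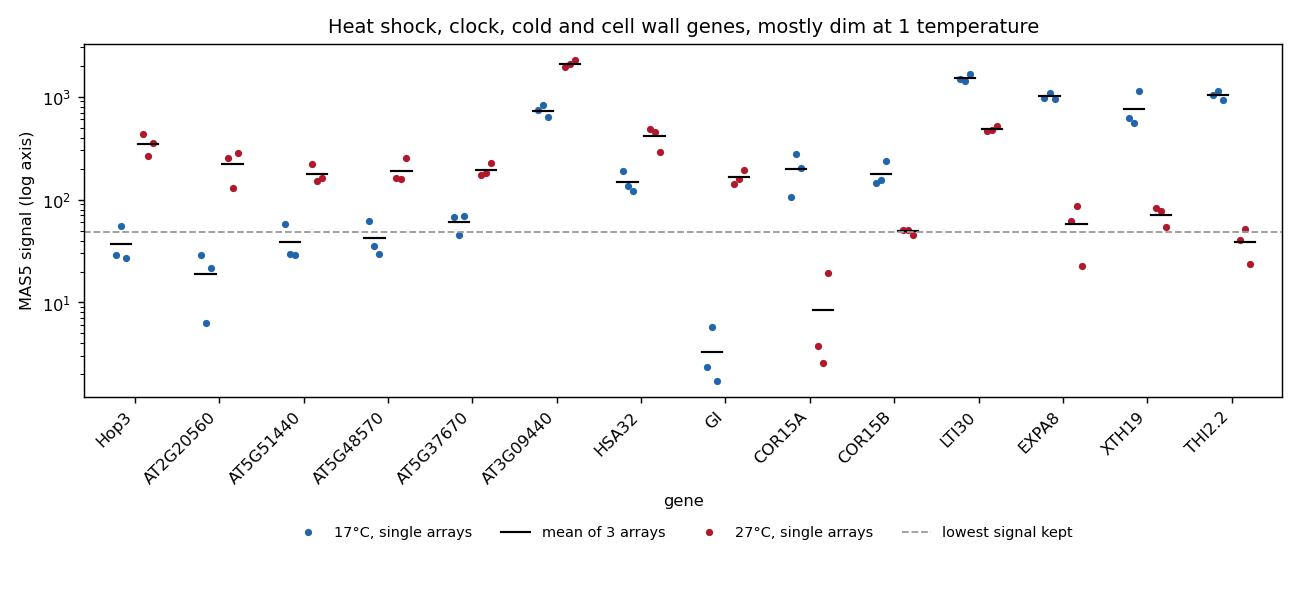
MAS5 signal (log axis) at time 0 of genes of heat shock, clock, cold response and the cell wall, and of THI2.2, in each array, blue for 17°C and red for 27°C, with means of 3 arrays as black lines and the lowest signal of any kept probe set, 48.2, as a dashed line. Points well below that line, such as GI at 17°C and COR15A at 27°C, have no reliable size.

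Other dim probe sets, by the rule of the 6 largest called in each direction, were mostly loci with no role on file. AT4G34950 went from 62.1, 39.1 and 50.4 to 1525, 1927 and 1374 (adjusted p = 3.3e-05), and AT4G29030 from 869.7, 1034 and 854 to 8.34, 5.65 and 6.87, at least 19.0-fold lower (adjusted p = 1.5e-06). Both were still called with the 6 time 0 arrays alone, as was THI2.2, a thionin with antimicrobial activity, which was at least 20.9-fold lower (1047, 1127 and 931 against 40.7, 52.0 and 23.9, adjusted p = 2.5e-05). EXPA8 was at 978, 1087 and 946 in the cool and 62.5, 86.5 and 22.8 in the warm seedlings, at least 15.7-fold lower (adjusted p = 0.00029). XTH19, with no time 0 array below 48.2, was 10.3-fold lower at 27°C (adjusted p = 0.00062), in the opposite direction to XTH15. Neither of these was called with the 6 arrays alone (adjusted p = 0.0163 and 0.0145). THI2.2, EXPA8 and XTH19 were chosen after their values were seen.

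Of 7 kept genes that rise in the dark or when sugar runs short, 4 were called higher at 27°C and none lower, and the median was 0.74. That is 57.1% higher, beside 10.7% over all kept probe sets. DYL1, a dormancy-associated protein, had 1175, 757 and 1479 at 17°C and 2758, 2882 and 2593 at 27°C (1.32 ± 0.24, adjusted p = 0.00065). AT2G05540 went from 10561, 8659 and 8278 to 16693, 15465 and 16595 (0.83 ± 0.14, adjusted p = 0.00039). In both the groups stayed apart, with more spread among the cool arrays. MCCA, a subunit of an enzyme of leucine breakdown, differed by 0.81 (adjusted p = 0.0033), a call lost without replicate 2 of either temperature (adjusted p up to 0.0173). BGAL4, a beta-galactosidase, differed by 0.74 (adjusted p = 0.0058), and its call held in 2 of the 6 fits, those without replicate 1 of either temperature. With 1 array left out, 2 to 4 members were called. DIN10 and AKINBETA1 were not called (0.24 and 0.11), and AT3G15450, whose warm arrays all lay below the cool ones, differed by -0.45 (adjusted p = 0.017).

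A wider set of genes for leucine and lysine breakdown was put together after values were seen. As such it does not measure how often these genes differ. It had 4 of 8 kept members higher and none lower. Besides MCCA these were MCCB, the other subunit of that enzyme, at 2106, 2035 and 1956 against 3409, 4666 and 3542 (0.92 ± 0.16, adjusted p = 0.00058), and ETFQO and D2HGDH, which pass electrons from this breakdown to respiration (0.91 and 0.92, adjusted p = 0.00074 and 0.00028). IVD, an earlier step, differed by 0.33 (adjusted p = 0.094). The next 4 genes were likewise chosen after their values were seen. ICL, isocitrate lyase of the glyoxylate cycle, through which stored lipid is turned to sugar, was at 184, 155 and 493 in the cool and at 1399.9, 847 and 2012 in the warm seedlings. Replicate 3 was the highest at each temperature, and the groups did not overlap (2.47 ± 0.45, adjusted p = 0.00076). MGL, which degrades methionine, rose by 1.61 (adjusted p = 4.5e-06). AAH, which releases nitrogen from allantoate, fell by 2.16 (4112, 4420.4 and 5504 against 969, 1225 and 938, adjusted p = 8.0e-07), while UPP, for salvage of uracil, fell by 2.06 (adjusted p = 2.2e-06).

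Genes for photosynthesis were largely not called: 1 of 7 kept, or 14.3%, was lower, near the 12.1% over all kept probe sets. SBPASE, a Calvin cycle enzyme, was the 1 called of 7 kept genes of light harvesting and carbon fixation, at 6159, 5809 and 6134 against 3976, 3435 and 3363, and it fell by 0.75 (SE 0.15, adjusted p = 0.0014). PRK, of the same cycle, lay at -0.49 (adjusted p = 0.0094), short of the 1.5-fold limit. The antenna proteins LHCB4.1, LHCB4.2 and LHCB4.3 differed by 0.13, -0.25 and 0.04, and RCA, which activates Rubisco, by 0.07. This list also serves as the check of shoot tissue, and the root list had 3 kept members, none called. Of these PYK10, a beta-glucosidase abundant in roots, was at 16388, 16029.5 and 12384 against 9787, 11341 and 13759, with overlapping groups (adjusted p = 0.11). EXPA7 and EXPA18 of root hairs lay at 0.12 and -0.17.

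Chlorophyll breakdown and synthesis were examined after values were seen, so the shares below do not measure how often such genes differ. Of 4 kept genes of breakdown 3 were higher (75.0%, beside 10.7% over all kept probe sets). ACD1, or pheophorbide a oxygenase, which opens the chlorophyll ring, was at 1021, 1063 and 948 at 17°C and at 2453, 2588 and 3105 at 27°C (1.42 ± 0.14, adjusted p = 7.5e-06). PPH, pheophytinase, rose by 1.38 (adjusted p = 4.5e-05), from 575 ± 101 to 1482 ± 119 (SD, n = 3). MES16, a later step, differed by 0.94 (adjusted p = 0.0041), a call that held in 1 of 6 fits (without 27°C replicate 2), and NOL by 0.18. All 9 kept genes of chlorophyll and heme synthesis were below 0 and 3 were called (33.3%, beside 12.1% lower over all kept probe sets). PORB, the light-dependent protochlorophyllide reductase, went from 1842, 2544 and 2239 to 1028, 1011 and 708 and fell by 1.28 (SE 0.18, adjusted p = 9.2e-05). HEME1, uroporphyrinogen decarboxylase, and CHLI2, of the magnesium chelatase, fell by 1.18 and 1.03 (adjusted p = 5.5e-05 and 0.00017).

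Transcripts encoded in the plastid lay below 0 more often than above, with few calls. Of 65 kept probe sets 51 were below 0 and 14 above, and the median was -0.44, beside 0.00 over all kept probe sets. None was called higher and 6 were called lower, which is 9.23% of them, under the 12.1% over all kept probe sets. The members named here, and the mitochondrial ones after them, were chosen after their values were seen. psbH, a subunit of photosystem II, had 1639.6, 1768 and 1512 in the cool and 480.2, 723 and 549.7 in the warm seedlings and fell by 1.51 (SE 0.30, adjusted p = 0.0014). The ribosomal protein transcripts rpl36 and rpl16 fell by 1.37 and 1.17 (adjusted p = 7.7e-05 and 0.0011), and rbcL, the large subunit of Rubisco, by 0.83 (3029.8, 3116 and 3198 against 1292, 2109 and 1986, adjusted p = 0.0022). In each of these 4 the groups stayed apart. The calls of cemA (-1.24) and ndhA (-0.77) were less firm, held in 1 and 2 of the 6 fits without 1 array, and each was kept without 27°C replicate 2; the call of ndhA was also kept without 17°C replicate 3. psbA, for the D1 protein of photosystem II, was at 1261, 1136 and 1229 against 1681, 1576 and 2341 and was not called (0.61, adjusted p = 0.14). The plastid transcripts share a few long precursors, so their values are not independent of one another.

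Transcripts encoded in the mitochondrion were few and mostly dim. Of 5 kept probe sets 2 were called higher (40.0%, beside 10.7% over all kept probe sets). ccb452, of cytochrome c assembly, went from 74.9, 84.3 and 74.1 to 266, 288 and 301 (1.87 ± 0.13, adjusted p = 2.8e-07), and its probe set is of a kind (_s_at) that can read more than 1 transcript. cox1, of cytochrome oxidase, differed by 1.00 (adjusted p = 0.0086) and was called in 1 of 6 fits, the one without 17°C replicate 1. Among 5 dim members cox2, nad5 and nad9 were called higher, at 38.1 against 118, 14.0 against 101 and 56.8 against 106 (adjusted p = 0.0061, 0.0076 and 0.0058). With arrays under 48.2 set to that signal, cox2 was at least 2.37-fold and nad5 at least 2.10-fold higher. For nad9, with no time 0 array under 48.2, the fold was 1.87. All 3 were in the dim set only through their means at 27°C, so they give no direction for the list. None of the 3 was called with the 6 time 0 arrays alone (adjusted p 0.0249 to 0.0376).

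**Figure D4:**
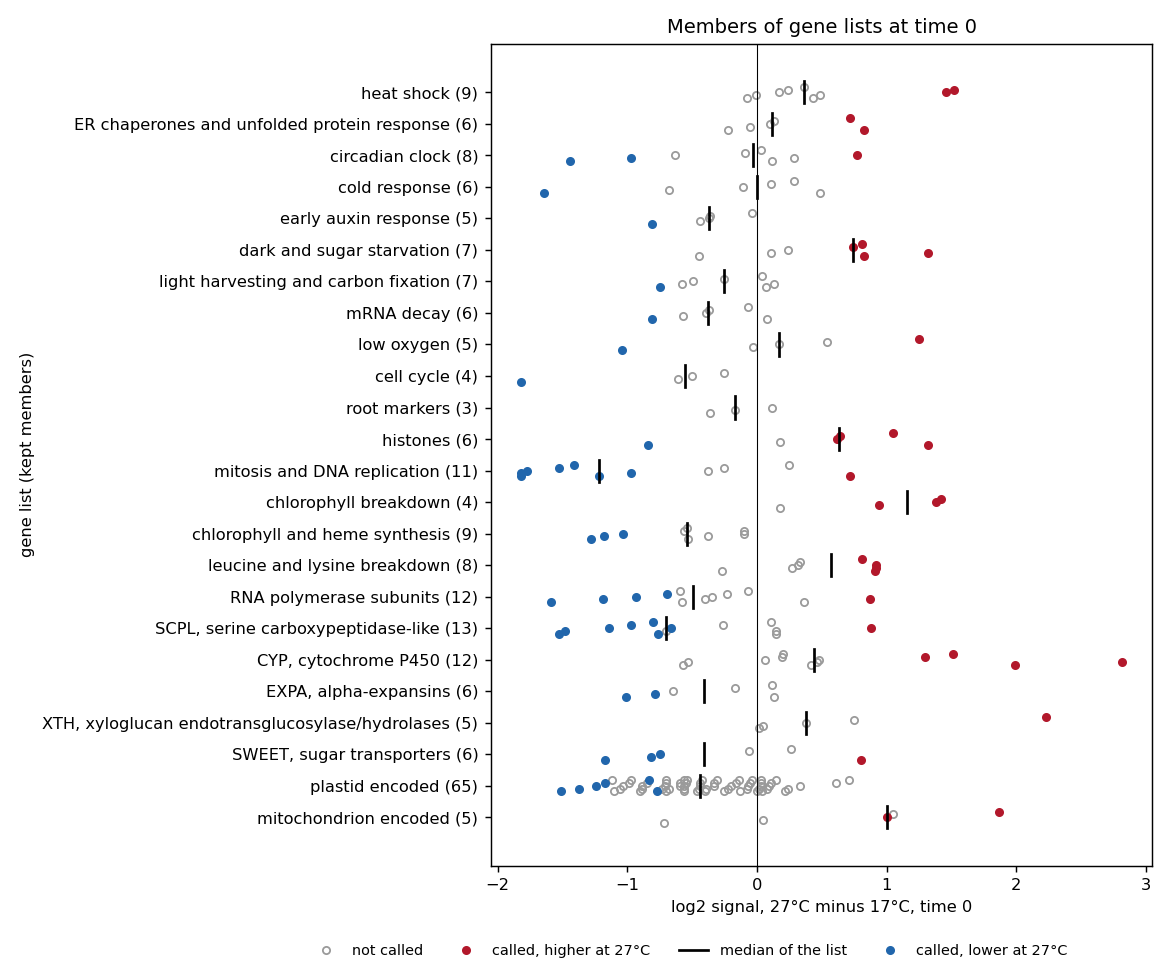
Log2 difference between 27°C and 17°C at time 0 (horizontal axis) of each kept member of 24 gene lists (vertical axis, with the number of kept members), open circles where not called, red where called higher and blue where called lower; black bars are medians. The 65 plastid-encoded transcripts have a median of -0.44 and the 7 genes of dark and sugar starvation one of 0.74.

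Several genes of mitosis and DNA replication were lower at 27°C. In the list of cell cycle genes by locus, 1 of 4 kept members was called, and all 4 were below 0 (median -0.56). This was 3xHMG-box1, which binds mitotic chromosomes, at 220.5, 216 and 235 in the cool and 60.7, 76.9 and 54.2 in the warm seedlings; it fell by 1.82 (SE 0.15, adjusted p = 1.9e-06). In a wider set by symbol, put together after values were seen, 7 of 11 kept genes were lower and 1 was higher. Over all kept probe sets 12.1% were lower and 10.7% higher. Because its members were picked with values known, this set does not measure how often such genes differ. ASF1B, a chaperone of new histones, was at 633, 669 and 657 against 216, 165 and 178 and fell by 1.82 (SE 0.23, adjusted p = 4.1e-05). 3xHMG-box2 fell by 1.77, BUB3.1 of the spindle checkpoint by 1.53, the kinase AUR1 by 1.41 and POLD3 of DNA polymerase delta by 0.97 (adjusted p from 5.8e-05 for BUB3.1 to 0.00058 for 3xHMG-box2). The call of AUR2 (-1.22) held only without 17°C replicate 2, which at 62.4 lay near the warm arrays. The 1 called higher, SYN4 of cohesin, differed by 0.72 and held in 2 of 6 fits, without 17°C replicate 2 or 27°C replicate 1.

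Histone genes gave calls in both directions. Of 6 kept genes found by the words of their description, 4 were called higher and 1 lower. These are 66.7% and 16.7%, beside 10.7% and 12.1% over all kept probe sets. Such words can also find genes that are not histones, and 1 of the 4 is not named here. Those named were chosen after their values were seen. RAT5, a histone H2A, went from 593, 456 and 686 to 1417, 1173 and 1748 (1.32 ± 0.24, adjusted p = 0.00064), and its call held without any 1 array. HTB2, a histone H2B, and HTA7 differed by 1.05 and 0.64, and HTA6 by -0.84 (adjusted p = 0.0046, 0.0053 and 0.0043). These 3 calls held in 2, 1 and 1 of the 6 fits: HTB2 without replicate 2 of either temperature, HTA7 without 17°C replicate 2 and HTA6 without 27°C replicate 1. With 1 array left out, 1 to 3 of the 6 kept genes were called higher. Histone genes are near copies of each other, so a probe set may read several.

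RNA polymerase subunits were called lower more often than higher, and 1 gene of mRNA decay was called. Of 12 kept polymerase subunits, a set chosen after values were seen, 4 were lower and 1 higher. These are 33.3% and 8.33%, beside 12.1% and 10.7% over all kept probe sets. Because the set was chosen with values known, these shares do not measure how often such genes differ. NRPE7, a subunit in the plant-specific polymerase V, was at 428, 512 and 411 against 196, 140.4 and 119.7 and fell by 1.59 (SE 0.20, adjusted p = 3.6e-05), NRPB9B by 1.19 and NRPC2 by 0.93. The call of NRPA2 (-0.69) was lost without replicate 2 of either temperature, and that of NRPC1 (0.87) held only without 17°C replicate 1. For mRNA decay 5 of 6 kept genes were below 0 (median -0.38), and DCP2, the catalytic subunit of decapping, was the 1 called (-0.81, adjusted p = 0.0058). Its call held only without 27°C replicate 2, and 1 of 6 is 16.7%, near the 12.1% called lower over all kept probe sets. XRN2, an exonuclease of the nucleus, lay at -0.57 (adjusted p = 0.017).

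Secondary metabolism and sugar transport were examined by gene family. Of 2 kept genes on the glucosinolate list both were called higher. UGT74B1, which adds the glucose, went from 581, 400.4 and 470.1 to 1065, 868 and 1415 (1.19 ± 0.20, adjusted p = 0.00043), while AT2G31790 (0.82) held only without replicate 3 of either temperature. GSTU20, a glutathione transferase of the same list, was dim at 27°C, at 215, 154 and 253 against 55.6, 48.9 and 28.2, at least 4.00-fold lower (adjusted p = 0.0019). GSTU20 was in the dim set only through its mean at 17°C, so it gives no direction for the list. Its call was lost without 17°C replicate 1 (adjusted p = 0.0101) and with the 6 time 0 arrays alone (adjusted p = 0.0228). Of 4 kept genes of flavonoid synthesis UGT78D1, a flavonol glycosyltransferase, was the 1 called higher (0.89, adjusted p = 0.0062), a call lost without any 1 array. Of 12 kept cytochromes P450 with a CYP symbol 4 rose and none fell, among them CYP71B26 above, CYP96A1 (1.99, adjusted p = 4.0e-06) and CYP71B5 (1.51, adjusted p = 2.4e-05). Serine carboxypeptidase-like (SCPL) genes, only some of which are acyltransferases of secondary metabolism, had 7 lower and 1 higher of 13 kept, with a median of -0.70. Whether the called SCPL genes are among the acyltransferases was not examined. SCPL45 was at 409, 502 and 459 against 149.6, 166 and 176 and fell by 1.48 (adjusted p = 1.2e-05), and SCPL34 rose by 0.88 (adjusted p = 0.0014). Of 6 kept SWEET genes, sugar exporters of the plasma membrane or the vacuole, SWEET2 fell by 1.17 (adjusted p = 5.8e-05) and SWEET11 rose by 0.80 (5458, 5013 and 5711 against 9464, 9066 and 9691, adjusted p = 0.00026). SWEET1 and SWEET12 were called lower (-0.82 and -0.75), each in 2 of 6 fits: SWEET1 without replicate 2 of either temperature and SWEET12 without 27°C replicate 1 or 3. The families were chosen after values were seen, so their counts do not measure how often such genes differ. Of all kept probe sets 10.7% were higher and 12.1% lower.

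For low oxygen, to which floating seedlings may be exposed, 1 of 5 kept genes was called higher and 1 lower, with a median of 0.17. Each is 20.0%, beside 10.7% higher and 12.1% lower over all kept probe sets. AT3G27220 went from 94.4, 94.7 and 204 to 289, 244 and 349 (1.25, adjusted p = 0.0021), a call lost without 17°C replicate 1 or 2 or 27°C replicate 3. AT5G66985 (-1.04) was called only without 27°C replicate 3. PDC2, pyruvate decarboxylase of fermentation, lay at 0.54 (adjusted p = 0.041). The single or paired kept members of the lists for jasmonate, abscisic acid, salicylic acid and H2A.Z deposition gave no call; AOS of jasmonate synthesis differed by 0.53 and SEF, a subunit of the complex that deposits H2A.Z, by -0.44 (adjusted p = 0.014 and 0.027). On the list for nitrate and phosphate AT1G68670 was the 1 kept, and it fell by 0.79 (adjusted p = 0.00037). Of genes the study singled out, AT4G38020 differed by 0.58 (adjusted p = 0.0036), at the limit of 1.5-fold, AT3G23550 by -1.32 (adjusted p = 0.015) and AT1G19430 by 0.20 (adjusted p = 0.34).

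The same contrast was made in the total RNA at the end of labeling, from 6 other arrays. There 646 probe sets were higher (4.97%) and 760 lower (5.85%) at 27°C. The groups then also differed in hours after dawn and in the time with 4SU, which cannot be told apart from temperature. Of the probe sets higher at time 0, 378 were also called higher at the end, 27.1% of the time 0 list and 58.5% of the end list, and 24 were called lower. Of those lower at time 0, 425 were called lower at the end, 27.1% and 55.9% of the lists, and 4 were called higher. The sign was the same at the end for 82.1% of the higher and 90.5% of the lower probe sets. Median differences went from 0.91 to 0.43 and from -0.94 to -0.45, and because the lists were chosen at time 0, a smaller difference at the end follows in part from that choice.

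Differences seen at both times included those of AT4G23680 (3.49 and 3.47), COBL2 (2.35 and 2.46), LTI30 (-1.64 and -2.24) and 3xHMG-box1 (-1.82 and -1.71), each called at the end too (adjusted p from 4.0e-08 for COBL2 to 5.5e-06 for 3xHMG-box1). All 5 dim heat shock genes were far brighter at the end at 27°C, with AT5G48570 at a mean of 5627 against 238 and Hop3 at 2309.9 against 87.4. XTH15 lay at 399 and 487 at the end, with a difference of 0.30 (adjusted p = 0.49), and CPD at 2818 and 2761 (-0.03, adjusted p = 0.88). The change of the temperature difference between the times passed an adjusted p of 0.01 for 302 kept probe sets (2.32%). Among them were 229 of those called at time 0, 160 higher and 69 lower. This count of 229 changed when 1 array was left out. Leaving out replicate 1 or 2 of 17°C gave 131 or 129, and leaving out replicate 1 or 3 of 27°C gave 135 or 122. The cause was not tested.

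**Figure D5:**
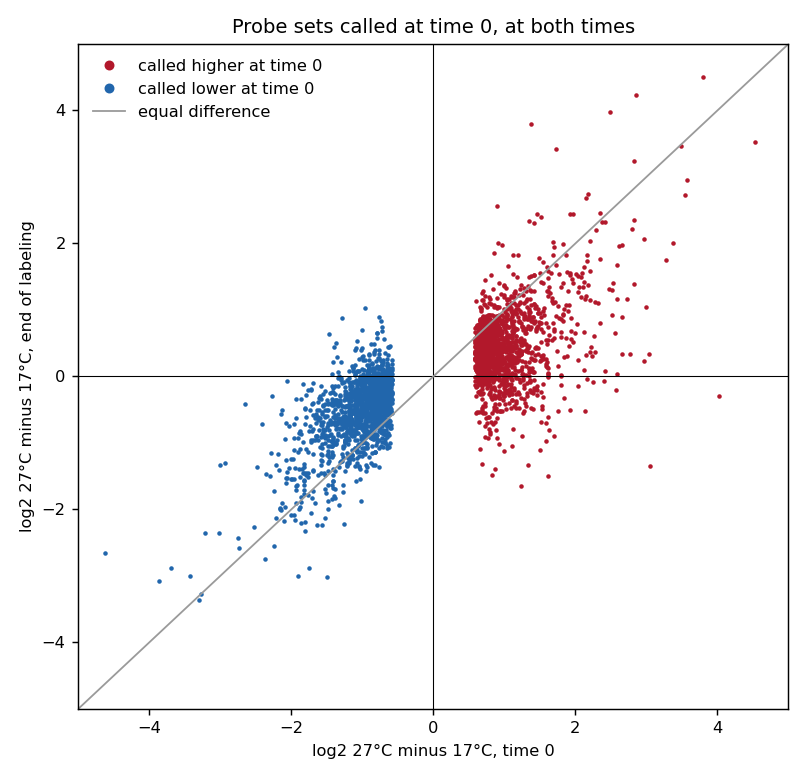
Log2 difference between 27°C and 17°C at time 0 (horizontal axis) and at the end of labeling (vertical axis) for probe sets called at time 0, red where higher and blue where lower; the gray line marks equal differences. Most points keep their side of 0, 82.1% of the red and 90.5% of the blue ones.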

How the data were processed

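RNA of whole seedlings was hybridized by the authors to ATH1 arrays. The deposited values are intensities (MAS5 signal) on a linear scale, and the authors had scaled each array to a trimmed mean of 500. No MAS5 version was given in the sources used here, and detection calls were not used here. The table lists 22810 probe sets, of which 64 AFFX controls were left out.

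Log2 signals of the 12 total RNA arrays (4 groups of 3) were fitted together with limma 3.58.1 (lmFit, eBayes) in R 4.3.3, with no further normalization. The kept set has the size of the gene set that the study called present. Dim probe sets were fitted and adjusted over all 22746. On simulated data of the time 0 comparison, 78 of 100 planted 2-fold and 100 of 100 planted 4-fold changes were recovered, with 3 false calls. The simulation had independent noise and far fewer changes than the data, where 22.8% of kept probe sets were called. Its rates therefore need not hold in the data. The labels call the samples biological replicates, and p-values measure the spread between these; 3 arrays per group limit the precision.

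A single gene is given for 14336 probe sets (13513 by the platform annotation and 823 by an annotation column of a supplementary table), several for 526 and none for 7884. Of 528 entries in 22 lists by locus, 86 had a named and kept probe set, so the lists cover a small part of each pathway. A locus with more than 1 probe set was read from the brightest. Other sets were found by symbol or words. Named genes were the 12 largest rises and falls with separate groups, the 4 largest called members per list (with none called, the largest difference), the 6 largest dim changes each way, genes the study singled out, and genes said to be chosen after their values were seen; other list members are named to complete a count. The members and lists were chosen with earlier results of these data known. Alternatives were the 6 time 0 arrays alone, no filter or one on mean signal, quantile normalization, 50 added before log2, a trended prior, a replicate block, looser limits and leaving out each array.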

Additional observations from a re-analysis of the deposited data

Results flagged for a closer look

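For 18 named genes the temperature difference at the end of labeling differed from that at time 0 by limma's interaction term; hours after dawn and 4SU changed with the time, and their part was not tested. Groups of 3 arrays were not searched for outlying arrays. Expressed as the log2 difference at the end minus that at time 0, loci with no role on file gave -2.69 for AT1G44830 (adjusted p = 9.3e-05), -1.94 for AT2G16660, -2.43 for AT1G08230, -1.75 for AT1G72060, -5.55 for AT4G34950, 1.97 for AT5G48490, 2.25 for AT2G34620, 3.58 for AT4G29030 and 5.05 for AT3G62950 (adjusted p from 0.000262 to 0.00407 for these 8). The last 2 and AT4G34950 are dim at 1 temperature, so the size is not reliable.

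GI had a log2 difference of 5.83 at time 0 and 0.06 at the end, a fitted change of -5.77 (adjusted p = 0.00302). The time 0 value rests on signals at 17°C far under 48.2 and supports no more than at least 3.38-fold, so neither the size of the change nor its p is reliable; mean signals at the end were 636 at 17°C and 659 at 27°C. FCA changed by -1.16 (0.92 to -0.24) and BGAL4 by -1.36 (0.74 to -0.62), so that both were on the other side of 0 at the end (adjusted p = 0.0031 and 0.0073 for the change). RR16 and HEC1 changed by -2.77 and -2.19, to -0.20 and -0.15. CYP71B26 changed by -1.43, CYP96A1 by -1.33, GBF1, a G-box binding bZIP factor, by -0.87 and MGL by -1.06, and each remained above 0 at the end.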

How the results depend on the processing

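The counts of 1393 higher and 1568 lower probe sets stayed within 1.5 times under the 6 time 0 arrays alone, a filter on mean signal, quantile normalization, 50 added before log2 and a trended prior, and with any 1 array left out (1078 to 1277 and 1167 to 1491). No probe set called in the main analysis was called the other way in these. Without a filter 866 were higher. With an adjusted p under 0.05 and no fold limit there were 2506 higher and 2668 lower, by construction more. A replicate block, in the 6 arrays, gave 898 higher and 1045 lower; the labels give the same numbers at both temperatures, but same-numbered arrays did not deviate together (correlations of -0.16, -0.09 and -0.02), so the numbers do not pair them. The 803 probe sets called the same way at both times became 663 to 808 without 1 array, and the 229 with a changed difference 122 to 261; the former were 409 without a filter and 1805 at the looser limits. Dim probe sets depended most on the fit: 70 higher and 120 lower became 2 and 4 with the 6 arrays alone, 113 and 204 with 50 added, and 32 to 55 and 54 to 106 without 1 array. For the higher ones this was beyond 1.5 times without replicate 1 or 3 of 17°C (42 and 37) or of 27°C (37 and 32), and for the lower ones without replicate 1, 2 or 3 of 17°C (54, 64 and 62) or 1 or 3 of 27°C (79 each). The causes were not tested. SNC1 of the defense list, at -0.03 and not called, was 0.02 after quantile normalization and -0.23 to 0.13 without 1 array. Of 159 named probe sets 92 kept direction and call in all alternatives run. Signal limits what dim probe sets can show, and 3 arrays a group limit small changes.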
